A study of Homo sapiens with 14 samples.

Results

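The genes described here are 9 B lineage genes: the surrogate light chain genes IGLL1, VPREB1 and VPREB3, the receptor subunits CD79A and CD79B, the tetraspanin CD37, the adaptor BLNK and the transcription factors EBF1 and PAX5. They were picked by name, with their levels in these data already known, and are 9 of the 55075 genes in the deposited tables. Their values are therefore given as descriptions, with no test of their own.

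B cell precursors carry a pre-B cell receptor on their surface. In it an immunoglobulin heavy chain pairs with a surrogate light chain made of the IGLL1 (lambda5) and VPREB1 proteins, and CD79A and CD79B carry the signal into the cell. In normal development these genes are switched on under EBF1, PAX5 and E proteins in B cell precursors, and both lines studied here come from leukemias of the T lineage.

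Expression was measured by RNA sequencing in CUTLL1 and CEM, established human lines of T cell acute lymphoblastic leukemia. A retrovirus brought in a hairpin that silences KDM6B (its protein is JMJD3), one that silences KDM6A (protein UTX) or, as the control, one directed at Renilla luciferase; these are written shJMJD3, shUTX and shRenilla. JMJD3 and UTX are related demethylases that act on lysine 27 of histone H3, where methylation goes with silent genes. There were 14 samples: CUTLL1 had 3 shJMJD3, 2 shUTX and 3 shRenilla samples and CEM had 2 of each. All groups are infected cells of 1 of these lines. How many hairpin sequences each target had was not given in the sources used here.

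Each deposited count column held 1 hairpin in 1 line, so a line gives no spread between replicates. Column totals ran from 70280185 to 104190473 counts in CEM and from 101792401 to 258014046 in CUTLL1. The CUTLL1 shRenilla column differed between tables: a larger column was set against shJMJD3 and a smaller one, contained in it, against shUTX. The difference between them is called the remainder. Small noncoding RNA took 18.7% of the counts of the remainder, 1.97% of the smaller control column, 11.7% of CUTLL1 shJMJD3 and 2.58% of CUTLL1 shUTX. The part of this difference in RNA content in the CUTLL1 values was not tested. The CUTLL1 levels of the members that carry a ratio are therefore shown in every control column, while list counts use the larger column unless another is named. The hairpins lowered their targets by different amounts: the log2 ratio of KDM6B in shJMJD3 to shRenilla was -1.71 in CEM and -0.64 in CUTLL1, and that of KDM6A in shUTX to shRenilla was -1.36 in CEM and -1.13 in CUTLL1. T lineage markers were present in all columns, with 17 of 17 at 50 counts or more.

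Stretches upstream of the surrogate light chain genes IGLL1 and VPREB1 are shown because these are the partners that make the light chain and because each holds both letter patterns searched for. They are read 5′ to 3′ along the gene from RefSeq promoter windows on build GRCh38.p14, with CCCNNGGG (the core of the EBF motif) and CAGGTG (an E-box, the motif of E proteins) in capitals. Where 2 overlapping EBF core matches lie together, the capitals span both.
IGLL1: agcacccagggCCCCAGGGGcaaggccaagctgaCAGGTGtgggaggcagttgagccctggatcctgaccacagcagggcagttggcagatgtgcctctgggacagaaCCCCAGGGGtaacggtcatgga
VPREB1: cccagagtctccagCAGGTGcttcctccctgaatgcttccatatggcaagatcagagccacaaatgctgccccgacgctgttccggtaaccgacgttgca
VPREB1 (nearer the start): tgctgggccagCCCTTGGGgaccccaggca
The IGLL1 stretch lies on the minus strand at chr22:23580356-23580485, and the VPREB1 stretches lie on the plus strand at chr22:22244569-22244668 and chr22:22244746-22244775.

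In windows from 250 bases before to 50 bases after the annotated start, searched on both strands, the EBF core was found in 6695 of 35116 promoters (19.1%) and the E-box in 7231 (20.6%). A promoter was found for 7 of the 9 genes, and CD37 and CD79B had no entry. The EBF core was in 2 of the 7, starting 184, 183, 87 and 86 bases before the IGLL1 start and 29 bases before that of VPREB1. The E-box was in 5 of the 7: IGLL1 at 161 bases before the start, VPREB1 at 203, VPREB3 at 187 before and 5 after, CD79A at 181 before and BLNK at 242 before. A match describes letters and says nothing of binding in these cells.

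The lines differed in how much of these genes they held before any demethylase knockdown. Levels are given in CPM, the usual depth-scaled count, taken here on the column total, and log2 ratios are scaled by the trimmed mean of M-values (TMM) with a prior count of 2. A ratio of CPM values differs from the TMM ratio by a shift that reaches -0.33 log2 units among the pairs of hairpins as the authors set them. With the other CUTLL1 control columns the shift is larger. It is -0.36 for shJMJD3 to the smaller column, 0.48 for shUTX to the remainder and -0.53 for the remainder to the smaller column. Intervals in brackets are exact 95% intervals that cover counting error only. Between genes, levels were compared per kilobase of merged exon. In CEM shRenilla, CD79A stood at 49.7 CPM per kilobase, CD37 at 33.1, CD79B at 3.96, VPREB1 at 1.39 and IGLL1 at 0.966. The log2 ratio of the larger CUTLL1 shRenilla column to CEM shRenilla was -7.23 for CD37, -5.35 for CD79A and -7.04 for CD79B. Of 5 members with enough counts 4 were at least 2-fold lower, beside 21.0% of all genes, and 0 were higher, beside 27.1%. Among the 4, CD79B (10 counts in CUTLL1, 859 in CEM) and VPREB1 (2 counts in CUTLL1, 109 in CEM) had enough counts only through CEM. They could therefore be counted only as lower. For IGLL1 this ratio was -0.25, with an interval from -0.64 to 0.14 that holds 0. Scaling by column totals shifts ratios of this pair by -0.35 log2 units. The CPM intervals of IGLL1, 0.485 to 0.674 in CUTLL1 and 0.703 to 1.07 in CEM, did not overlap. Whether counting error separates the control columns of the lines in IGLL1 thus depended on the scaling.

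**Figure D1:**
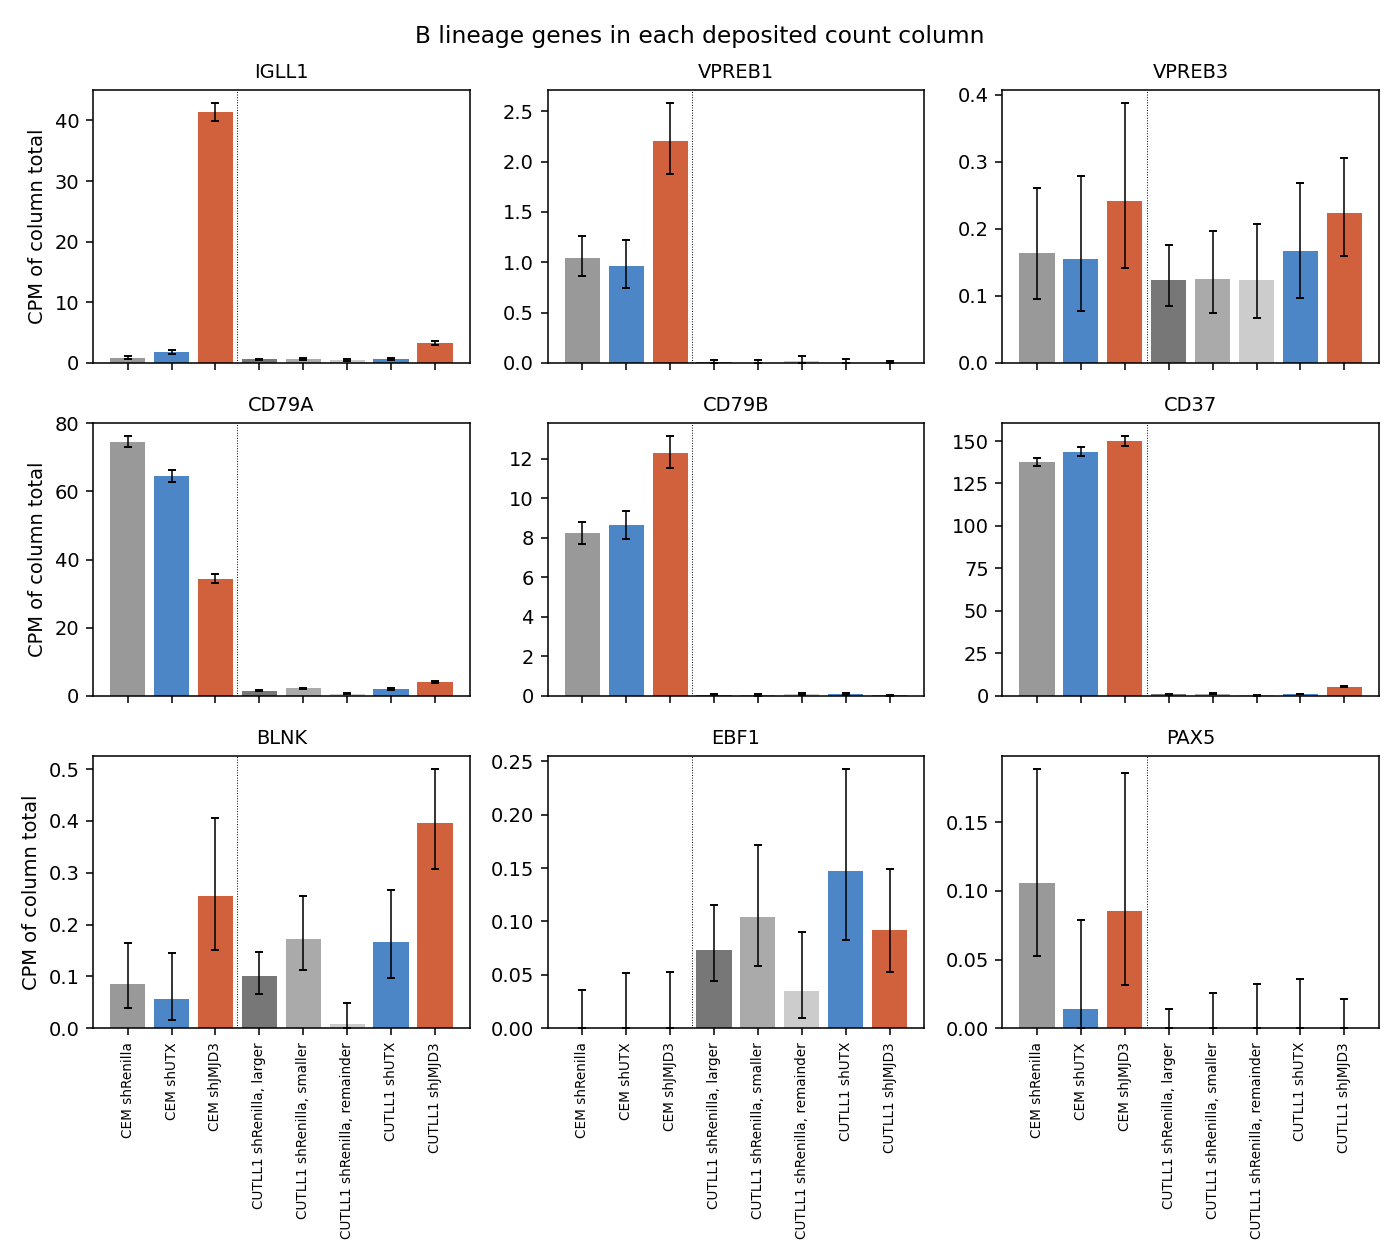
Level of each member in every deposited column and in the CUTLL1 remainder, in CPM of the column total, with exact 95% Poisson intervals for counting error. IGLL1 stands at 41.3 CPM in CEM shJMJD3 and at 0.873 CPM in CEM shRenilla, and CD37 lies above 100 CPM in all 3 CEM columns.

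IGLL1, which encodes the constant-like part of the surrogate light chain, differed most among the members in CEM. Its level was 41.3 CPM in shJMJD3 (2905 counts), 1.72 CPM in shUTX (122 counts) and 0.873 CPM in shRenilla (91 counts). The shJMJD3 column was thus high, and the other columns lay close to each other near the bottom of the scale. The log2 ratio of shJMJD3 to shRenilla was 5.80 [5.53 to 6.15], or 55.6-fold, and that of shJMJD3 to shUTX was 4.80 [4.56 to 5.09], or 27.8-fold. The shUTX to shRenilla ratio was 1.00 [0.61 to 1.42], which before rounding lay just under 2-fold. Both of the CEM ratios to the control use the same shRenilla column.

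In CUTLL1 the IGLL1 level was 3.26 CPM in shJMJD3 (569 counts) and 0.648 CPM in shUTX (66 counts). The control columns held 0.574 CPM (larger, 148 counts), 0.651 CPM (smaller, 94 counts) and 0.475 CPM (remainder, 54 counts). All control columns and shUTX were low, and shJMJD3 was above each of them. The log2 ratio of shJMJD3 was 2.63 [2.39 to 2.92] to the larger column, or 6.19-fold. It was 2.66 to the smaller column and 2.67 to the remainder. The ratio of shUTX to the smaller column was 0.03 [-0.45 to 0.50]. With TMM scaling the remainder and the smaller column differed by 0.07 on the log2 scale, while in CPM the remainder was the lower (0.475 against 0.651). How even the parts of the control were in IGLL1 thus depended on the scaling. The near copies of IGLL1, IGLL5 and IGLL3P, were at or below 0.057 CPM in every column.

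VPREB1, which encodes the variable-like partner of IGLL1, was present in CEM at 2.21 CPM in shJMJD3 (155 counts), 1.05 CPM in shRenilla (109 counts) and 0.960 CPM in shUTX (68 counts). The shJMJD3 column was the highest, at a log2 ratio of 1.33 [0.98 to 1.71] to shRenilla and 1.41 [1.01 to 1.87] to shUTX. Between shUTX and shRenilla the ratio was -0.09 [-0.55 to 0.36]. In CUTLL1, VPREB1 had 0 counts in shJMJD3, in shUTX and in the smaller control column and 2 counts in the larger, all of them in the remainder. A count of 0 allows up to 0.0172 CPM in CUTLL1 shJMJD3, taking 3 counts as the limit. Of the light chain partners, CUTLL1 shJMJD3 thus held reads of IGLL1 and none of VPREB1.

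VPREB3, a relative of VPREB1 that resides in the endoplasmic reticulum, had 17 counts in CEM shJMJD3, 17 in shRenilla and 11 in shUTX. In CUTLL1 it had 39 counts in shJMJD3, 32 in the larger control column and 17 in shUTX. These counts were under the 50 set as the minimum for a ratio, and the levels lay between 0.123 and 0.242 CPM in all columns.

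CD79A, the first of the receptor's signal-carrying subunits, went in opposite directions in the lines. In CEM its level was 34.4 CPM in shJMJD3 (2417 counts), 74.7 CPM in shRenilla (7782 counts) and 64.5 CPM in shUTX (4572 counts). The shJMJD3 column was the lowest, with a log2 ratio of -0.85 [-0.91 to -0.78] to shRenilla and -0.67 [-0.75 to -0.60] to shUTX. On column totals the first of these ratios was -1.12, past 2-fold.

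In CUTLL1 the CD79A level was 4.11 CPM in shJMJD3 (717 counts) and 1.89 CPM in shUTX (192 counts), against 1.43 CPM (368 counts), 2.10 CPM (303 counts) and 0.572 CPM (65 counts) in the larger, smaller and remainder control columns. The shJMJD3 column was the highest, but the control columns were spread more widely than for IGLL1. The log2 ratio of shJMJD3 was 1.66 [1.49 to 1.85] to the larger column, 1.33 to the smaller and 2.74 to the remainder. Within the control, the remainder to the smaller column had a ratio of -1.33 [-1.76 to -0.96], as large in size as the lowest of those ratios. For shUTX the ratio was -0.12 [-0.39 to 0.14] to the smaller column, 0.23 to the larger and 1.21 to the remainder, so its sign depended on the control column. Even its highest CUTLL1 level was below the lowest CEM level. CD79A and CD37 are among 210 genes abundant in CEM and scarce in CUTLL1 shUTX. Of these, 63 of the 136 with enough counts (46.3%) were at least 2-fold higher in CUTLL1 shJMJD3 than in the larger control column, beside 3.68% of all genes. The share was 12.4% among genes as scarce in CUTLL1 shUTX but under 1 CPM in each CEM column. Against the smaller column the shares of the sets were 53.7% and 28.7%, beside 14.5% of all genes. Reads of CEM cells in the CUTLL1 shJMJD3 column would raise genes abundant in CEM, and whether that column holds any was not tested. As a percentage of the CEM shJMJD3 level, CUTLL1 shJMJD3 held CD79A at 12.0%, IGLL1 at 7.90%, CD37 at 3.47%, CD79B at 0.0931% and VPREB1 at 0 counts.

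CD79B, the partner that forms the signalling pair with CD79A, did not follow it in CEM. Its level was 12.3 CPM in shJMJD3 (866 counts), 8.24 CPM in shRenilla (859 counts) and 8.63 CPM in shUTX (611 counts). The shJMJD3 column was the highest, at a log2 ratio of 0.85 [0.71 to 0.99] to shRenilla and 0.75 [0.60 to 0.90] to shUTX, while CD79A was lower there. In CUTLL1, CD79B was near absent, with 2 counts in shJMJD3, 6 in shUTX, 10 in the larger control column and 3 in the smaller.

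CD37, a tetraspanin of the surface of B cells that T cells also carry at lower level, was high and even in CEM: 150 CPM in shJMJD3, 138 CPM in shRenilla and 144 CPM in shUTX. The log2 ratio of shJMJD3 to shRenilla was 0.40 [0.36 to 0.43], and 0.12 on column totals. In CUTLL1 it stood at 5.21 CPM in shJMJD3 (908 counts), 0.884 CPM in shUTX (90 counts), and 0.709 CPM (183 counts), 1.22 CPM (176 counts) and 0.0616 CPM (7 counts) in the larger, smaller and remainder control columns. CUTLL1 shJMJD3 was above every other CUTLL1 column and far below every CEM column. The ratio of shJMJD3 was 3.00 [2.79 to 3.26] to the larger control column, 2.44 to the smaller and 6.04 to the remainder. The remainder was lower than the smaller column by -3.53 on the log2 scale, a difference within the control that exceeds the ratio of shJMJD3 to the smaller column. For shUTX the ratio was -0.42 [-0.81 to -0.06] to the smaller column, 0.14 to the larger and 3.07 to the remainder.

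**Figure D2:**
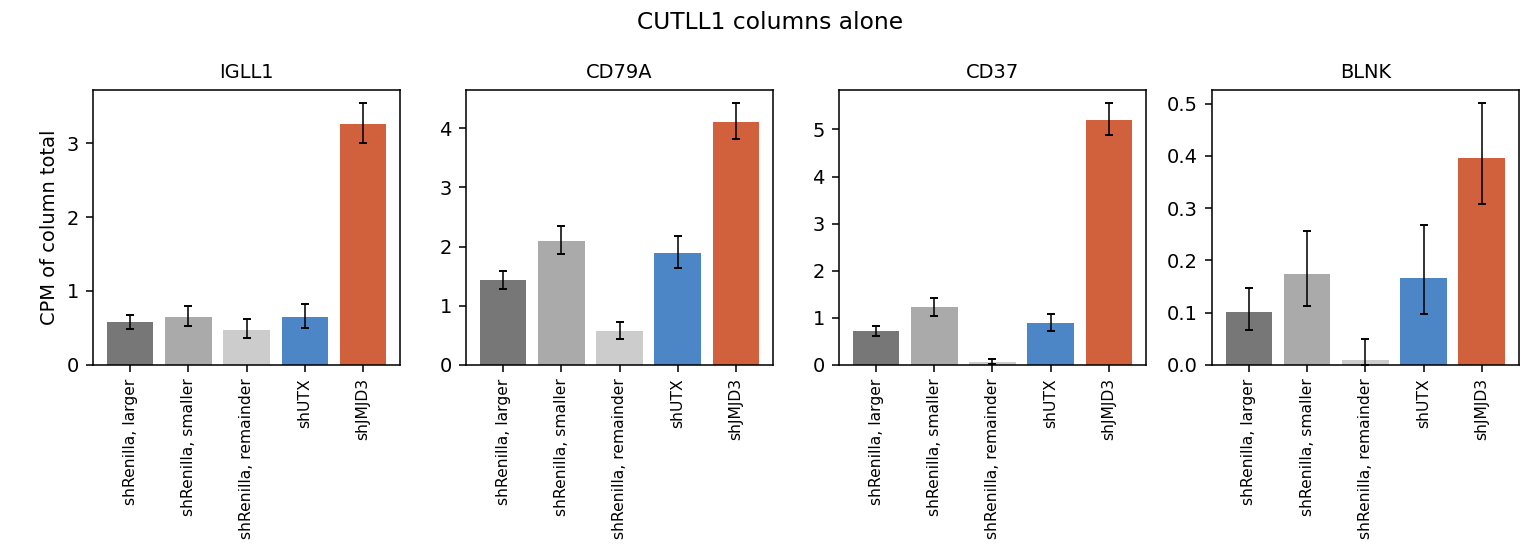
The CUTLL1 columns alone for IGLL1, CD79A, CD37 and BLNK, in CPM of the column total on an axis from 0 for each gene, with exact 95% Poisson intervals for counting error. The shJMJD3 bar is above every control bar and the shUTX bar for all 4 genes, and the remainder is lowest, at 0.0616 CPM for CD37.

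BLNK, the adaptor that links the activated receptor to downstream enzymes, was scarce in both lines. In CUTLL1 it had 69 counts in shJMJD3 (0.396 CPM), 17 in shUTX (0.167 CPM), 26 in the larger control column (0.101 CPM), 25 in the smaller (0.173 CPM) and 1 in the remainder. The shJMJD3 column was the highest, with a log2 ratio of 2.02 [1.45 to 2.83] to the larger column and 1.48 to the smaller. The ratio of 4.13 to the remainder rests on that 1 count. In CEM it had 18 counts in shJMJD3, 9 in shRenilla and 4 in shUTX, too few for a ratio.

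EBF1 and PAX5, the factors that establish and hold B cell identity, were at or near 0. EBF1 had 0 counts in all 3 CEM columns and between 15 and 19 counts in CUTLL1 shJMJD3, shUTX and the larger and smaller control columns, at up to 0.147 CPM. PAX5 had 0 counts in all CUTLL1 columns and 6 counts in CEM shJMJD3, 11 in shRenilla and 1 in shUTX. Neither factor had its highest level in the shJMJD3 column of either line.

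**Figure D3:**
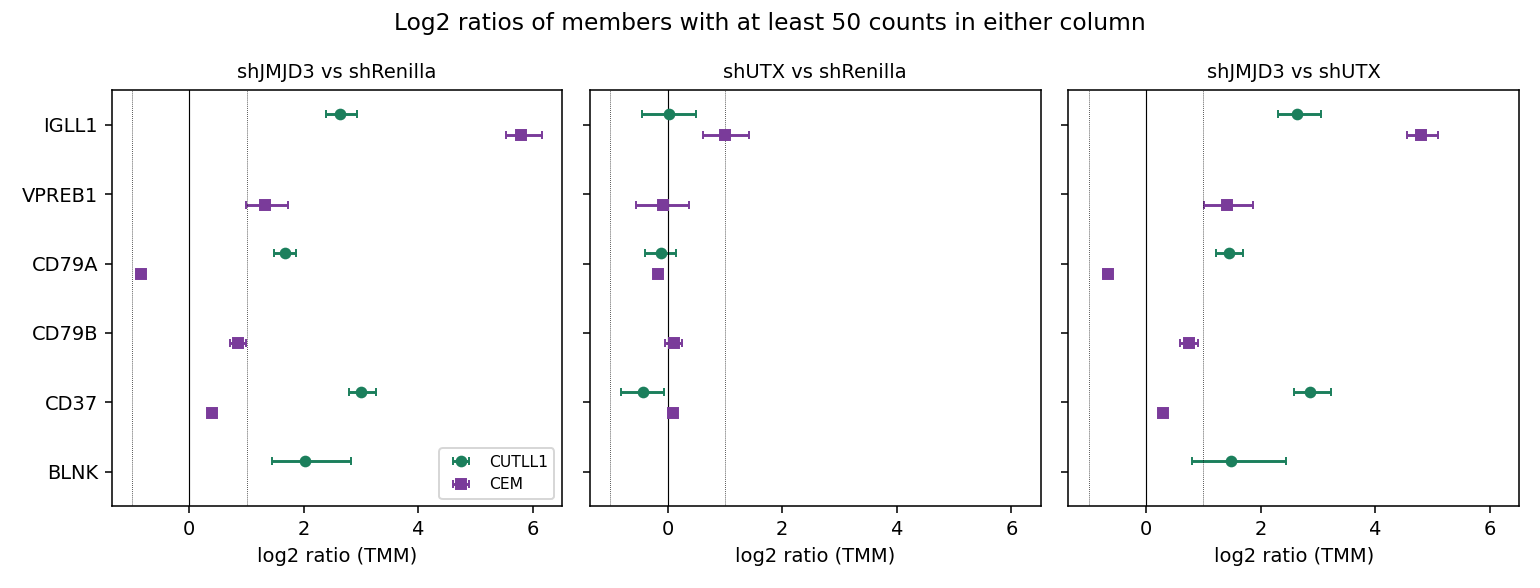
TMM log2 ratios of the members with at least 50 counts in either column, for each pair of hairpins (the CUTLL1 shRenilla column is the larger for shJMJD3 and the smaller for shUTX; dotted lines mark 2-fold), with exact 95% intervals for counting error. IGLL1 lies at 5.80 in CEM and 2.63 in CUTLL1 for shJMJD3 to shRenilla, and CD79A lies above 0 in CUTLL1 and below 0 in CEM.

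Counted over the members, CUTLL1 shJMJD3 was at least 2-fold above the larger shRenilla column for 4 of 4 genes with enough counts (IGLL1, CD79A, CD37 and BLNK), where 3.68% of all genes were. The 4 genes had a median log2 ratio of 2.32 and all genes one of -0.01. BLNK reached the minimum of 50 counts only through its shJMJD3 column (69 counts, against 26 in the larger control column). It could therefore be counted only as higher, here and against the parts of the control. Against both parts of the control at once, the smaller column and the remainder, all 4 were at least 2-fold higher, as were 2.52% of all genes. For the smaller column alone the share of all genes past 2-fold was 14.5% in the higher and 0.979% in the lower direction, and for the remainder alone it was 10.3% and 9.82%. In CEM, 2 of 5 (IGLL1 and VPREB1) were at least 2-fold higher in shJMJD3, beside 11.3% of all genes, and 0 of 5 were 2-fold lower, beside 14.1%. The CEM median was 0.85 for the members and -0.06 for all genes. Of the 3 members that could be measured in both lines, IGLL1 alone was at least 2-fold higher in both, as were 123 of 15882 genes (0.774%). Since the genes were chosen with these ratios known, nothing is read from the shares.

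In the shUTX to shRenilla pairs no member passed 2-fold. In CUTLL1 0 of 3 were higher or lower, beside 0.657% and 0.272% of all genes, and in CEM 0 of 5, beside 0.81% and 1.23%. Against the larger control column 0 of 3 passed in CUTLL1, beside 1.29% higher and 13.0% lower among all genes. Against the remainder CD79A and CD37 were at least 2-fold higher, beside 9.67% of all genes, with 18.2% lower. Within the control, the remainder was at least 2-fold below the smaller column for CD79A and CD37, 2 of 3 members, beside 7.44% of all genes, and at least 2-fold above it for 0 of 3, beside 16.6%. Set against shUTX, shJMJD3 was at least 2-fold higher for 4 of 4 members in CUTLL1, beside 14.7% of all genes, and for 2 of 5 in CEM, beside 11.6%. No member was 2-fold lower there, beside 1.67% of all genes in CUTLL1 and 13.0% in CEM. In CUTLL1, BLNK was again counted only through its shJMJD3 column. IGLL1 was at least 2-fold higher in both lines, as were 1.36% of all genes. These comparisons share the shJMJD3 and shUTX columns with the others and are not separate evidence.

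**Figure D4:**
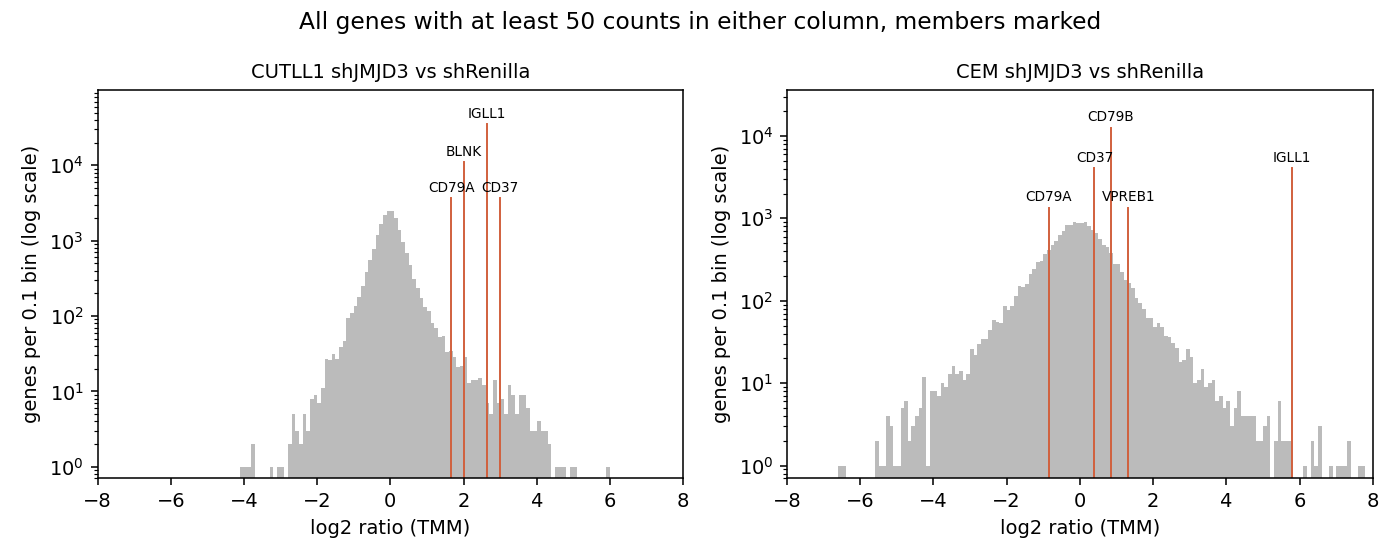
Distribution of TMM log2 ratios of shJMJD3 to shRenilla over all genes with at least 50 counts in either column, in bins of 0.1 with genes per bin on a log scale; vertical lines mark the members and differ in height only to keep the labels apart. The 4 CUTLL1 members lie between 1.66 and 3.00, and in CEM IGLL1 lies at 5.80 while the other 4 lie between -0.85 and 1.33.

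With the lines taken as replicates, edgeR's quasi-likelihood test called 0 of 24003 genes (0.0%) between shJMJD3 and shRenilla at an adjusted p under 0.05. At an unadjusted p under 0.05 it had 936 genes, and DESeq2 called 115 (0.479%). Of the 7 members tested, edgeR called 0, 3 had an unadjusted p under 0.05, and DESeq2 called 1, IGLL1. DESeq2 gave BLNK and VPREB3 no adjusted p, here or between shJMJD3 and shUTX. The fits cover all genes, and the members were chosen with their levels known, so nothing is read from the calls of members in any contrast. Between shUTX and shRenilla edgeR called 0 of 23112 genes (0.0%) and 0 of 8 members, with 39 genes and 0 members at an unadjusted p under 0.05 and 1 gene (0.00433%) and 0 members called by DESeq2. Between shJMJD3 and shUTX edgeR called 0 of 24003 genes (0.0%) and 0 of 7 members, with 1945 genes and 2 members at an unadjusted p under 0.05, while DESeq2 called 313 genes (1.3%) and 1 member, IGLL1. Between the lines themselves edgeR called 8835 of 24003 genes (36.8%), and 4 of the 7 members (CD37, CD79A, CD79B and VPREB1) were lower in CUTLL1. DESeq2 called 47.5% of genes and 5 of the 7 members there. These fits have 2 residual degrees of freedom. With line and hairpin both in the model, they measure how far differences between hairpins vary from line to line, not the spread between cultures. For the contrast of the lines, the hairpin columns of a line stood in as replicates.

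The receptor's other signalling genes were spread on both sides of the control. This list and those that follow were also drawn up with earlier results of these data known. Their counts stand beside the shares of all genes for shJMJD3 to shRenilla, which were 3.68% (higher) and 2.33% (lower) for CUTLL1 against 11.3% and 14.1% for CEM, and beside all-gene medians of -0.01 and -0.06, and nothing particular to a list is read from them. Of 24 listed genes, 17 had enough counts in CUTLL1 for shJMJD3 to shRenilla, and 2 stood at least 2-fold above and 1 below the control, with a median of 0.01. In CEM 18 had enough counts, of which 4 were higher and 2 lower, with a median of 0.48. PRKCB, the protein kinase C isoform downstream of the B cell receptor, was the only one at least 2-fold higher in both lines. Its level was 601 CPM in CEM shJMJD3, 339 CPM in shRenilla and 339 CPM in shUTX, and in CUTLL1 it was 32.0 CPM in shJMJD3, 8.25, 13.7 and 1.38 CPM in the larger, smaller and remainder control columns and 10.3 CPM in shUTX. The log2 ratio of PRKCB in shJMJD3 to shRenilla was 1.10 in CEM, and in CUTLL1 it was 2.10 to the larger column, 1.59 to the smaller and 4.45 to the remainder. Within the control the remainder to the smaller column had a PRKCB ratio of -2.77, larger in size than the ratio of 2.10. For shUTX to shRenilla 0 of 17 listed genes passed 2-fold in CEM, and 0 of 17 in CUTLL1 against the smaller column. Of all genes, 0.81% were higher and 1.23% lower in CEM, and 0.657% and 0.272% in CUTLL1. Against the larger column 0 of 17 were higher and 1 lower, beside 1.29% and 13.0% of all genes. Against the remainder 1 of 16 was higher and 2 lower, beside 9.67% and 18.2%. SYK, the kinase that binds the CD79 tails, had 0 counts in all 3 CEM columns and 8.87 to 16.3 CPM in the CUTLL1 columns.

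Of 18 listed transcription factors of the B lineage, 13 had enough counts in CUTLL1 and 1 was at least 2-fold higher in shJMJD3, with 0 lower and a median of -0.17. In CEM 15 had enough counts, 1 was higher and 5 were lower, with a median of -0.27. BACH2, a repressor of plasma cell fate, had a log2 ratio of -1.82 in CEM and of 1.56 to the larger, 1.19 to the smaller and 2.81 to the remainder column in CUTLL1. The BACH2 ratio of the remainder to the smaller column was -1.52, close in size to 1.56. Of 16 listed surface markers of B cells, 1 of 6 in CUTLL1 and 3 of 6 in CEM were higher and none was lower, with medians of 0.26 and 0.74. Among those in CEM were CR2 at 1.74 and CD72 at 1.04.

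The defining markers of mature B cells gave a mixed picture. MS4A1 (CD20) had 0 counts in all columns and CD22 was at or below 0.270 CPM. The summed level of 7 such markers ran from 11.2 to 48.7 CPM in CEM, highest in shJMJD3, and from 175 to 339 CPM in CUTLL1, lowest in shJMJD3. Most of both sums was CR2, the complement receptor CD21, which T cell lines can also carry. The 17 listed immunoglobulin constant and joining chain genes in the tables summed to at most 0.171 CPM in CEM and to at most 2.31 CPM in CUTLL1. In CUTLL1, 2 of them had enough counts, and both were at least 2-fold higher in shJMJD3 than in the larger control column, IGKC at a log2 ratio of 1.15 and IGJ, the joining chain, at 1.00. Against the smaller column 0 of 2 passed 2-fold, at 0.61 and 0.43. IGKC stood at 1.39 CPM in shJMJD3, 1.74 CPM in shUTX, and 0.686, 1.17 and 0.0704 CPM in the larger, smaller and remainder columns. Reads of 1 or a few B cells and reads spread over many cells cannot be told apart in bulk samples, nor can fewer cells of a type and less RNA per cell.

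Markers of other cell types were measured beside the members. T lineage markers had 2 of 17 at least 2-fold higher and 3 lower in CEM shJMJD3, the lower ones being TRAC at -3.60, PTCRA at -1.41 and ZAP70 at -1.17, and 0 of 17 in either direction in CUTLL1. The CEM shares of this list lie near those of all genes. Their summed level was between 5134 and 9266 CPM in all columns. Of 10 myeloid markers 2 were measured in CEM and both were higher in shJMJD3, among them ITGAM (CD11b) at 6.33 CPM against 0.125 CPM in shRenilla, while LYZ, MPO and ELANE were at or below 0.0988 CPM. The summed myeloid level was 23.0 CPM in CEM shJMJD3 and 5.77 CPM in shRenilla. Of 6 stem and progenitor markers 2 were measured in CEM and both were higher in shJMJD3, CD34 at a log2 ratio of 2.33 and SPINK2 at 3.22. In CUTLL1, 1 of 4 myeloid markers was at least 2-fold higher and 1 lower. The higher was again ITGAM, at a log2 ratio of 1.17 to the larger control column, 1.02 to the smaller and 1.61 to the remainder. Of the progenitor markers in CUTLL1, 0 of 3 were higher and 1 lower. NK markers had 0 of 3 past 2-fold in CUTLL1 (3 of 3 higher against the remainder, 0 of 3 against the smaller column) and 1 of 2 higher in CEM, and plasma cell markers had 1 of 3 higher and 1 lower in CUTLL1 and 1 of 1 lower in CEM. The part of these markers in the IGLL1 and VPREB1 values was not tested.

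IGLL1, VPREB1 and VPREB3 lie near one another on chromosome 22, so the genes beside them were examined. The 3 nearest protein-coding genes on each side gave 15 distinct neighbours, of which 1 was not matched to the tables. In CEM, 12 had enough counts for shJMJD3 to shRenilla, none stood 2-fold above the control and 2 stood 2-fold below it, beside 11.3% and 14.1% of all genes, with a median of -0.32. In CUTLL1, 10 had enough counts and 0 passed 2-fold in either direction, beside 3.68% and 2.33% of all genes, with a median of -0.16. Beside IGLL1 in CEM, the log2 ratio was -0.39 for BCR, -2.16 for DRICH1, -0.65 for RGL4 and -1.36 for ZNF70. Beside VPREB1 it was -0.74 for ZNF280B and 0.92 for PRAME. The IGLL1 ratio of 5.80 thus had no like among its measured neighbours.

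**Figure D5:**
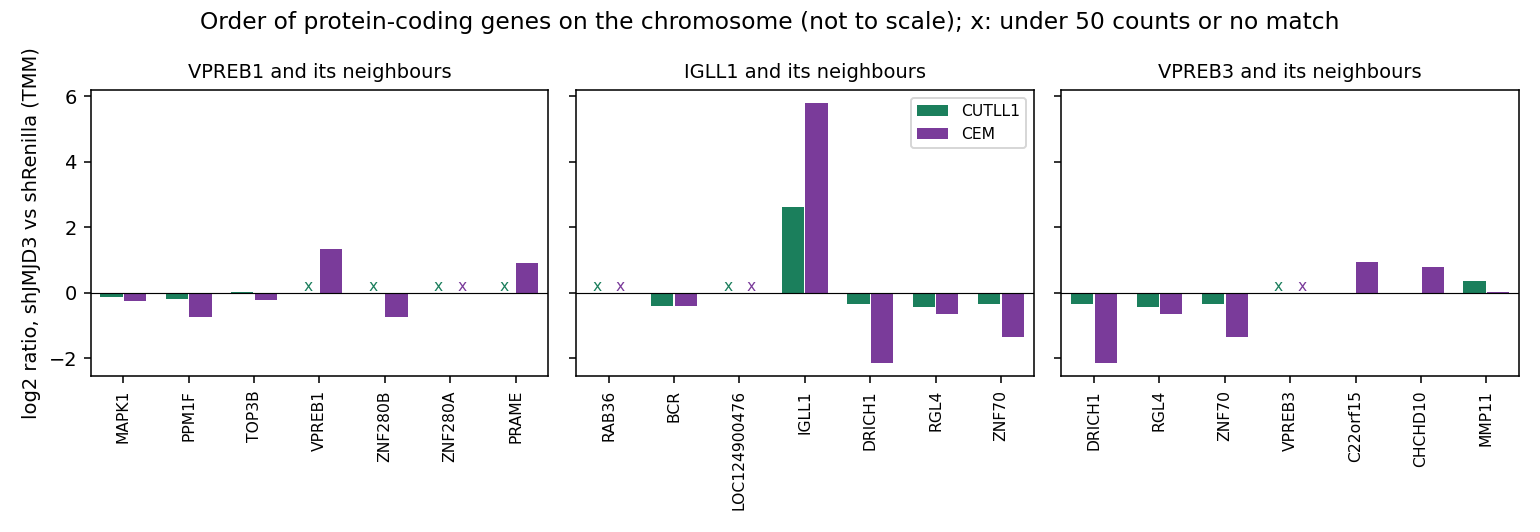
TMM log2 ratios of shJMJD3 to shRenilla for IGLL1, VPREB1 and VPREB3 and the 3 protein-coding genes on each side, as bars by gene order along chromosome 22, with an x for a gene under 50 counts or not matched. In CEM the neighbours of IGLL1 with enough counts lie between -2.16 and -0.39, and IGLL1 lies at 5.80.

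Likeness to other genes was measured as Pearson's r of log2(CPM + 0.5) over the 6 hairpin-by-line columns, among 12732 protein-coding genes with at least 1 CPM in any column. The points share their lines and libraries, so r describes these columns only. The genes most like IGLL1 were HSPB1 (r = 0.980), AK7 (0.979) and MT1G (0.979), and 0 genes reached 0.99. MT1G, a metallothionein, stood at 8.99 CPM in CEM shJMJD3 and 0.432 CPM in shRenilla. HSPB1, a small heat shock protein, stood at 143 CPM and 45.5 CPM. CD37 was most like SLAMF6, CYBRD1 and APOL1, with 46 genes at 0.99 or more. CD79A was most like LY75, the LY75-CD302 read-through that overlaps it, and TSPYL2, with 62 genes at 0.99 or more. The patterns of CD37 and CD79A were therefore matched at that level by many genes, and that of IGLL1 by none. CD37 and CD79A differed mainly between the lines, where edgeR called 36.8% of genes, while IGLL1 stood out in CEM shJMJD3. The part of this in the counts of like genes was not tested.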

How the data were processed

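RNA from 14 samples was sequenced as 50-nt single reads from strand-marking libraries after polyadenylated RNA selection or ribosomal RNA depletion, per the labels' protocols. CASAVA, TopHat and hg19 come from the submitters' processing notes. Each sample's RNA selection, the read counter, the annotation and the strand setting were not given in the sources used here. Deposited by the authors were 6 tables, each with raw read counts in 2 columns. Per the file headers the tables also hold log2 fold changes, a z-score, p-values and q-values from the authors' DEGseq comparison, named in the design text. These deposited log2 ratios, scores and p-values compare reads of pooled columns and were not used.

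Each column was treated as a pool of its group, since the sources used here do not say which samples it holds. Missing values, present only where neither column had a count, were read as 0. The larger CUTLL1 shRenilla column is at or above the smaller in all 55075 genes, so the remainder was taken by subtraction. GENCODE 29, on another build, gave biotypes and exon lengths for 48932 genes.

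Ratios within a line are TMM-scaled, with a prior count of 2, for genes with at least 50 counts in either column, and have exact 95% intervals. Scaled by column totals instead, log2 ratios shift in CUTLL1 by -0.14 (shJMJD3 to shRenilla), -0.03 (shUTX to shRenilla) and -0.33 (shJMJD3 to shUTX), and in CEM by -0.27, -0.04 and -0.23 in that order. Across lines, edgeR 4.0.16 (quasi-likelihood F test, TMM, filterByExpr, line as block) was fitted to all columns with Benjamini-Hochberg adjustment at 0.05, with DESeq2 1.42.0 as an alternative. The scripts were tested on simulated counts. Genes named are the 9 members, list genes past 2-fold the same way in CUTLL1 and CEM, defining markers of other cell types, the chromosome 22 neighbours, and the 3 genes most like IGLL1, CD37 and CD79A. List genes named beyond this rule (SYK, BACH2, CR2, CD72, IGKC, TRAC, PTCRA, ZAP70, CD34, SPINK2, IGJ and the near copies IGLL5 and IGLL3P) were chosen after their values were seen. The members and lists were chosen with earlier results of these data known. Some listed genes are not reported here.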

Additional observations from a re-analysis of the deposited data

Results flagged for a closer look

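The CD79A ratio of shJMJD3 to shRenilla had opposite signs in the lines, with a log2 ratio of 1.66 in CUTLL1 and -0.85 in CEM. The CD79A ratio of shJMJD3 to shUTX did so too, at 1.45 in CUTLL1 and -0.67 in CEM, and it shares the shJMJD3 columns with the first. For CD37 the ratio of shUTX to shRenilla was -0.42 in CUTLL1 and 0.10 in CEM, and against the larger CUTLL1 control column it was 0.14. Each line has 1 column per hairpin, so the difference between lines was not tested for any of these.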

How the results depend on the processing

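No paired analysis was possible because the deposited columns carry no replicate number, and for the same reason no replicate could be left out. DESeq2 in place of edgeR called 115 genes between shJMJD3 and shRenilla, 1 between shUTX and shRenilla and 313 between shJMJD3 and shUTX, where edgeR called 0 in each. For the last, edgeR called 6 genes on column totals and 55 with no filter on low counts. Members at least 2-fold apart numbered 2 in place of 0 for CUTLL1 shUTX against the remainder. For CEM shJMJD3 against shRenilla and against shUTX they numbered 1 in place of 2 at a minimum of 200 counts and 4 in place of 2 at 1.5-fold. For CEM shUTX against shRenilla they numbered 1 in place of 0 at a minimum of 10 counts and 1 at 1.5-fold. The causes were not tested, except that a higher minimum leaves fewer genes. Of 26 member ratios, a prior count of 0.5 moved 0 beyond its counting interval and column totals moved 10, with 1 change of sign. The control column mattered more for CD79A, CD37 and BLNK in CUTLL1 than for IGLL1, as given with their values. Low counts limit VPREB3, EBF1, PAX5 and BLNK, and VPREB1 and CD79B in CUTLL1.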

Other observations

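Genes abundant in CEM and scarce in CUTLL1, as CD37 and CD79A are, were examined after the values were seen. Of protein-coding genes, 210 had at least 10 CPM in each CEM column and at most 2 CPM in CUTLL1 shUTX, 2 of them members. In CUTLL1, 136 of the 210 had enough counts for the ratio of shJMJD3 to the larger shRenilla column, and 63 (46.3%) stood at least 2-fold above the control and 10 below, at a median log2 ratio of 0.77. Against the smaller column 66 of 123 (53.7%) were higher, and against the remainder 67 of 119 (56.3%). Of 6633 genes under 1 CPM in each CEM column and at most 2 CPM in CUTLL1 shUTX, 1064 had enough counts, and 132 (12.4%) stood 2-fold above and 93 below, at a median of -0.07. Against the smaller column 243 of 847 of these (28.7%) were higher and against the remainder 197 of 792 (24.9%), so the gap between the sets was narrower there. Whether the CUTLL1 shJMJD3 column holds reads of CEM cells, which would raise CEM genes in it, was not tested. Of the 210 genes, 41 had at most 3 counts in CUTLL1 shJMJD3, and the quartiles of the level there as a percentage of that in CEM shJMJD3 were 0.0852%, 1.51% and 4.88%. In the larger control column they were 0.101%, 0.939% and 2.94%. Among the members that CEM carries, CUTLL1 shJMJD3 had 908 counts of CD37, 717 of CD79A, 569 of IGLL1, 2 of CD79B and 0 of VPREB1. In the reverse direction, 97 genes had at least 10 CPM in each CUTLL1 column and at most 2 CPM in CEM shUTX. Of these, 36 had enough counts in CEM, and 8 (22.2%) were at least 2-fold higher in shJMJD3 than in shRenilla and 12 lower, with a median of -0.07, beside 173 of 724 (23.9%) higher and 243 lower among genes under 1 CPM in each CUTLL1 column and at most 2 CPM in CEM shUTX. No test was made of these shares.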
